A study of Mus musculus with 8 samples.

Results

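The cytokines that a dendritic cell makes while it presents antigen steer what the T cell becomes. The transcripts of 9 such genes were followed here: Il12a, Il12b, Il23a, Ebi3, Il27, Il15, Il6, Il10 and Tgfb1. They were chosen by name, and each was found by its Ensembl identifier among the 55487 mouse genes in the deposited count table. 6 of the 9 passed the filter on low counts and 3, Il12a, Il23a and Il10, did not. Both groups were wild-type (WT) dendritic cells grown in GM-CSF for 10 days from the bone marrow of C57/bl6 mice 6 to 8 weeks of age. BMDC, the 4 control libraries, received no treatment. BMDC-fer, the other 4 libraries, came from BMDC that were co-cultured for 4 h with ferroptotic Jurkat cells and sorted for having engulfed them. Jurkat cells, a human T-cell leukemia line, had been driven into ferroptosis, a death by lipid peroxidation, with ML162 at 0.5 µM for 14 h. No label says that the control cells passed through the sorter, so co-culture, uptake and sorting cannot be told apart.

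Several of these cytokines are built from shared chains. IL-12, which drives T cells toward interferon-gamma production, pairs p35 (Il12a) with p40 (Il12b). IL-23, which maintains IL-17-producing T cells, pairs p19 (Il23a) with the same p40. IL-27 pairs p28 (Il27) with EBI3 (Ebi3), a chain that also joins p35 in IL-35. IL-15 sustains natural killer and memory CD8 T cells, IL-6 favours IL-17-producing and follicular helper T cells, and IL-10 restrains antigen-presenting cells. TGF-beta1 is released in a latent form and directs regulatory T cells once activated. A transcript level says nothing of secretion, pairing or activation.

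Total counts were 39326672 to 50532209 per library. Values are given as raw counts or as CPM, counts relative to the TMM-scaled library size. A floor of 3 counts, taken as the limit that a count of 0 allows, was 0.0607 to 0.0785 CPM and covers counting error only, because no molecular identifiers mark reads copied from the same molecule. The 4 libraries of a group are described as independently collected. Within each group the libraries formed a pair of replicates 1 and 2 and a pair of replicates 3 and 4, with a chi-square per gene of 9.0 to 40.9 within pairs and of 133 to 346 across them. No label names a batch for this split, and p-values over all 8 libraries carry its spread. Markers of dendritic cells were present in every library, with a summed level of 6624 to 14812 in BMDC and 3098 to 7268 CPM in BMDC-fer. Without Cd74, the highest of them, the sums were 2801 to 5236 in BMDC and 1531 to 2457 CPM in BMDC-fer. Markers of macrophages and monocytes summed to 2292 to 3274 in BMDC and 2762 to 4187 CPM in BMDC-fer. Of these lists of 10 genes each, 3 and 1 were called lower, and 7 and 1 were once the fit held a block for the replicate number (the replicate block). Of all tested genes 5.91% were called lower, and 13.0% were called in either direction with the block. Itgax, Batf3 and Xcr1, on the dendritic cell list, were called in neither fit (log2 fold changes -0.10, -0.26 and -0.08). The 9 neutrophil markers, 4 of them called lower and 8 with the block, summed to 45.8 to 264 CPM in BMDC libraries and 14.1 to 44.4 in BMDC-fer. Of 5 NK cell markers only 1, Klrk1, was tested, and it was called lower in either fit. The 5 summed to 7.16 to 15.6 CPM in BMDC and 0.934 to 4.78 in BMDC-fer. Without Klrk1 the sums were 0.0499 to 0.358 and 0.122 to 0.236 CPM, with no fall. Of 7 mast cell and basophil markers 2 were tested, with 0 called and 1 with the block. They summed to 21.9 to 29.6 and 5.87 to 22.4 CPM, and without Kit to 2.40 to 5.94 and 0.262 to 1.80 CPM. The part of these cells in the cytokine values was not tested. In bulk RNA, fewer cells of a type and less RNA per cell cannot be told apart.

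The promoters of Il12b, Il6 and Ebi3 are shown first, because these are the 3 cytokine transcripts that fell in BMDC-fer replicates 3 and 4, described further on. Each line is the 250 bases before the RefSeq transcript start on GRCm38.p6, 5′ to 3′ on the plus strand. Il12b lies at chr11:44399813-44400062, Il6 at chr5:30012864-30013113 and Ebi3 at chr17:55952373-55952622. Capitals mark a match to the NF-kB consensus.
Il12b: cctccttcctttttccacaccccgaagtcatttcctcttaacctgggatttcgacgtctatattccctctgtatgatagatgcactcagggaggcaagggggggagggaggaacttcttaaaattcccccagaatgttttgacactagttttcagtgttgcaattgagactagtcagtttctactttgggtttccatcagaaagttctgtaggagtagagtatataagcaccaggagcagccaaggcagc
Il6: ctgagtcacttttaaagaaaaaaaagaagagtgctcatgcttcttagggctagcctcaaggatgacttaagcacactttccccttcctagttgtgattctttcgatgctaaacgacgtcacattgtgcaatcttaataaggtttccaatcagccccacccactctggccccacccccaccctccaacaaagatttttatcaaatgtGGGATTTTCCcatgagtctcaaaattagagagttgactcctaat
Ebi3: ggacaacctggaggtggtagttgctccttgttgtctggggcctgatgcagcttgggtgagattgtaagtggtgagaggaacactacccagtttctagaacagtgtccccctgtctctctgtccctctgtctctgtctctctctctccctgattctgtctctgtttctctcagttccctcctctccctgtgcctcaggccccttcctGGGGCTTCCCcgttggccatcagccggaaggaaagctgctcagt

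Il6 and Ebi3 each held 1 match to the NF-kB consensus, both beginning 44 bases before the start, while the Il12b window held 0. Of 32851 RefSeq promoters of the same length, 7.25% held such a match on either strand. The Il12b window held 2 matches to the Ets core GAGGAA, at 219 and 143 bases before the start, and the Ebi3 window held 1 at 176. That core was in 23.3% of promoters. The AP-1 motif TGANTCA was found once in the Il6 window, at 249 bases before the start, against 6.75% of promoters. A window was given for 5 of the 9 genes, and among the others the Tgfb1 window held an NF-kB match at 140 bases before its start. A match is a run of letters, not a shown binding site, and no match says only that these letters are not in this window.

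None of the 9 transcripts was called different between BMDC-fer and BMDC over all 8 libraries. To be called, a gene needed an adjusted p of at most 0.05 and a log2 fold change of at least 0.58 in either direction. By the quasi-likelihood test of edgeR, with p-values adjusted after Benjamini-Hochberg, 0 of the 6 tested cytokines were called, where 9.38% of all 15411 tested genes were. At an unadjusted p under 0.05 the number was also 0, and it was 0 with DESeq2 and 0 with the replicate block, which called 13.0% of all tested genes. With the filter removed, 0 of the 9 were called, against 4.51% of 28787 genes. The ranges of the groups overlapped for all 9, whereas 22.9% of tested genes had groups that did not overlap. The plot of CPM per library shows where the overlap came from for the 6 genes that passed the filter.

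**Figure D1:**
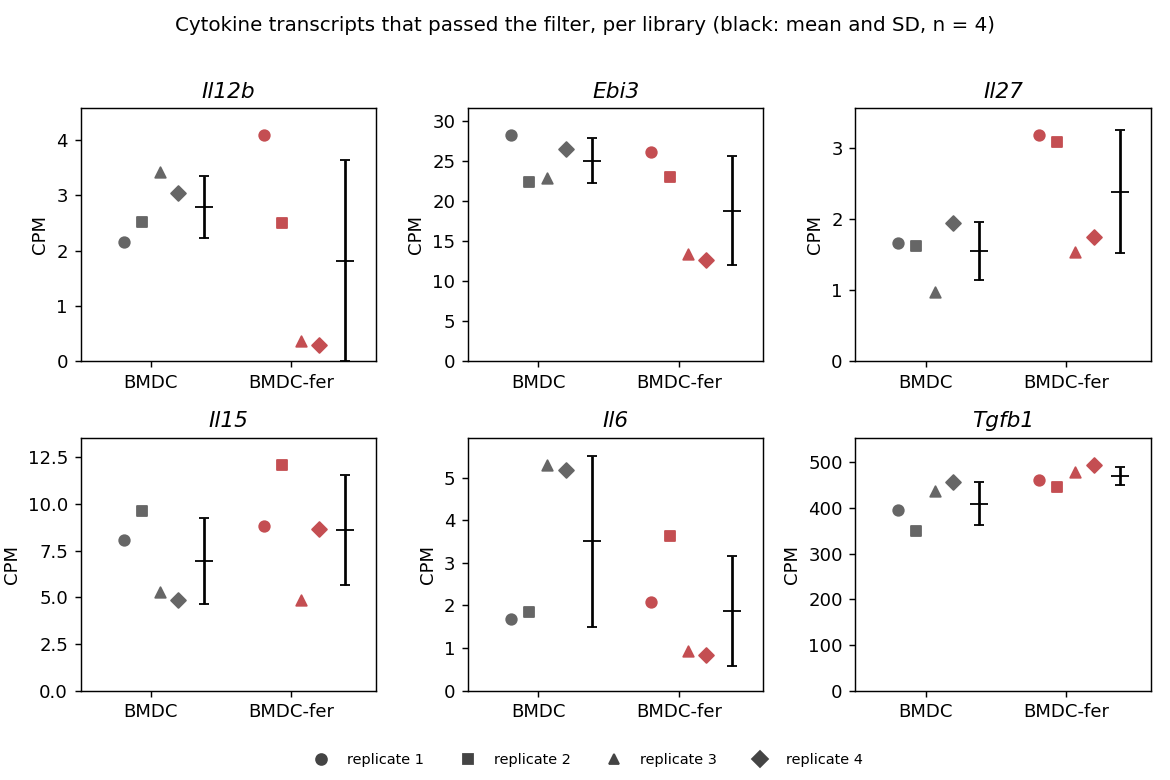
CPM of the 6 cytokine transcripts that passed the filter, with 1 point per library (grey BMDC, red BMDC-fer, shape by replicate number) and black bars for the mean and SD of 4 libraries, cut at 0. In Il12b, Ebi3 and Il6 the triangle and diamond of BMDC-fer, replicates 3 and 4, lie below all 4 BMDC libraries, while replicates 1 and 2 lie among or above them.

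Levels between genes were compared per length, as CPM per kilobase of the union of annotated exons. In BMDC, Tgfb1 was highest at 81.2 ± 9.43 CPM per kilobase (SD, n = 4), followed by Ebi3 at 21.7 ± 2.44 and Il15 at 3.08 ± 1.02. Il27 at 1.52 ± 0.404, Il6 at 1.44 ± 0.827 and Il12b at 1.42 ± 0.283 CPM per kilobase came next, and neighbours among these 3 overlapped. Il10, Il23a and Il12a closed the order at means of 0.115, 0.0625 and 0.0432 CPM per kilobase, again with neighbours that overlapped. In BMDC-fer the first 4 places were the same, with Tgfb1 at 93.2 ± 4.05, Ebi3 at 16.3 ± 5.90, Il15 at 3.81 ± 1.31 and Il27 at 2.34 ± 0.846 CPM per kilobase (SD, n = 4). Il15 overlapped with Il27 there, as did Il27 with Il12b and Il12b with Il6. The level of Tgfb1 depended on the length used, and by its longest transcript it was 159 in BMDC and 183 CPM per kilobase in BMDC-fer.

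Il12b encodes p40, the chain common to IL-12 and IL-23, and lies on chromosome 11 from 44400063 to 44414033 (GRCm38, plus strand, GENCODE M21). Its counts in the 4 BMDC libraries, in replicate order here and below, were 94, 120, 145 and 122, or 2.17, 2.53, 3.43 and 3.04 CPM. In BMDC-fer they were 202, 102, 15 and 11, or 4.09, 2.5, 0.359 and 0.288 CPM. Thus BMDC-fer replicate 1 was the highest of all 8 libraries, and replicates 3 and 4 were the lowest by a wide margin. BMDC averaged 2.79 ± 0.557 CPM and BMDC-fer 1.81 ± 1.83 CPM (SD, n = 4). The log2 fold change was -0.62 (SE 0.74, 95% interval -2.30 to 1.06, adjusted p = 0.604 by edgeR), an interval that spans both a fall and a rise. With the replicate block the log2 fold change was -1.25, with an edgeR adjusted p of 0.350. An exact two-sided permutation test of log2(CPM + 0.05) gave p = 0.314, where 4 against 4 can reach 0.0286.

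The partners of p40 were at the limit of detection. Il12a (chromosome 3 from 68690644 to 68698547, plus strand), which encodes p35, had 2, 0, 1 and 9 counts in the 4 BMDC libraries and 2, 1, 0 and 0 counts in BMDC-fer. Only BMDC replicate 4 exceeded the floor of 3 counts, so no fold is given. Il23a (chromosome 10 from 128296139 to 128298752, minus strand), which encodes p19, had 10, 3, 5 and 6 counts in BMDC and 14, 3, 10 and 5 counts in BMDC-fer. In the fit without a filter its log2 fold change was 0.40 (SE 0.59, adjusted p = 0.699 by edgeR), and a difference was not detectable at this depth. In each of the 8 libraries Il12b had more counts than Il12a or Il23a, and the distance was smallest in BMDC-fer replicates 3 and 4, at 15 against 10 and 11 against 5 counts for Il23a.

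**Figure D2:**
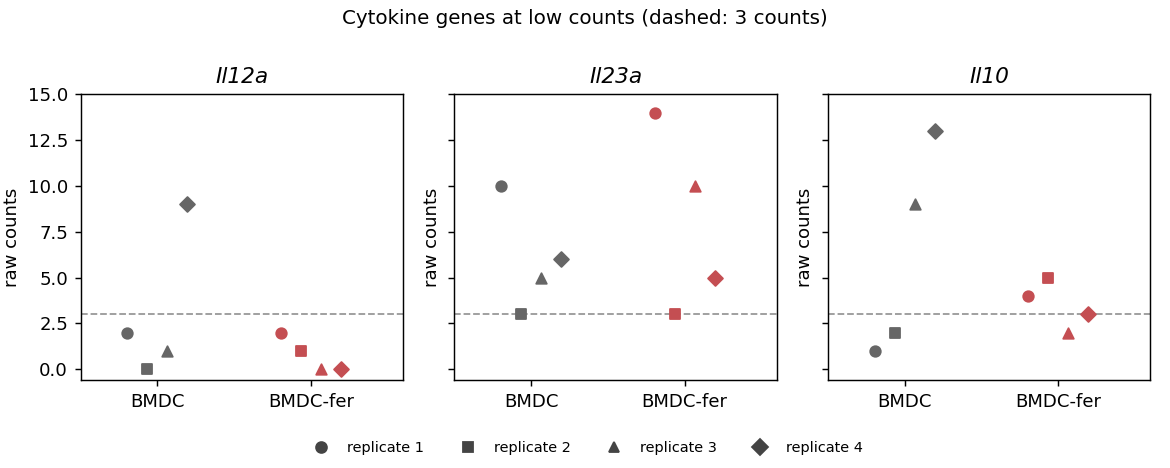
Raw counts of Il12a, Il23a and Il10, the 3 cytokine genes under the filter, with 1 point per library (grey BMDC, red BMDC-fer, shape by replicate number) and a dashed line at the floor of 3 counts. All 24 points lie between 0 and 14 counts, and in each gene the groups overlap.

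The fold changes of the IL-27 chains had opposite signs, and neither passed the test over all libraries. Il27, which encodes p28 (chromosome 7 from 126589010 to 126594941, minus strand), was at 1.66, 1.62, 0.970 and 1.95 CPM in the 4 BMDC libraries. In BMDC-fer it was at 3.18, 3.08, 1.53 and 1.75 CPM. Replicates 1 and 2 of BMDC-fer lay above every control, while replicates 3 and 4 lay within their range. BMDC averaged 1.55 ± 0.412 and BMDC-fer 2.39 ± 0.864 CPM (SD, n = 4), a log2 fold change of 0.62 (SE 0.33, 95% interval -0.12 to 1.37, adjusted p = 0.237 by edgeR). Ebi3 (chromosome 17 from 55952640 to 55957022, plus strand) was at 28.2, 22.4, 22.9 and 26.6 CPM in BMDC, then at 26.1, 23.1, 13.4 and 12.6 CPM in BMDC-fer. Here BMDC-fer replicates 3 and 4 lay below every control and replicates 1 and 2 lay within their range. BMDC averaged 25.1 ± 2.81 and BMDC-fer 18.8 ± 6.81 CPM (SD, n = 4), a log2 fold change of -0.41 (SE 0.25, 95% interval -0.97 to 0.15, adjusted p = 0.293 by edgeR).

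The ratio of Ebi3 to Il27 within a library was lower in every BMDC-fer library than in any BMDC library. In the 4 BMDC libraries, Ebi3 exceeded Il27 15.1, 12.2, 20.9 and 12.1 times, as a ratio of CPM per kilobase. In BMDC-fer the ratio was 7.28, 6.61, 7.73 and 6.38. The means were 15.1 ± 4.13 and 7.0 ± 0.617 (SD, n = 4), a log2 difference of -1.06 or a ratio 2.08-fold lower. This ratio was chosen after the values were seen, so it is a description and carries no test. Groups did not overlap for 22.9% of single tested genes, and the share among ratios of genes was not computed. In replicates 1 and 2, mean Il27 was 1.64 CPM in BMDC and 3.13 in BMDC-fer, and Ebi3 25.3 and 24.6. In replicates 3 and 4, Il27 was 1.46 and 1.64 CPM, and Ebi3 24.8 and 13.0. Ebi3 shares 270 exon bases with the antisense gene Gm16712, and Il27 shares 103 with the antisense gene Apobr. Whether the counting used strand is not given in the sources used here, and without it reads of a gene and its antisense partner cannot be told apart. Gm16712 had 70 to 270 counts in BMDC and 103 to 317 in BMDC-fer. Apobr, with 2878 to 4673 counts in BMDC and 3975 to 5163 in BMDC-fer, was far above Il27 at 41 to 157 counts, and its part in the ratio was not tested.

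**Figure D3:**
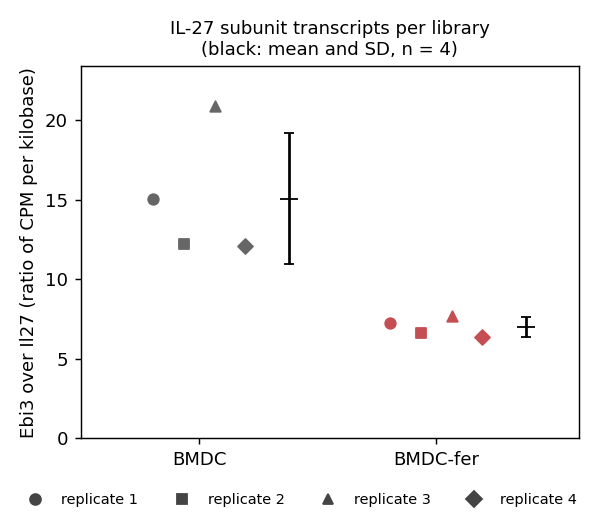
Ratio of Ebi3 to Il27, each as CPM per kilobase, with 1 point per library (grey BMDC, red BMDC-fer, shape by replicate number) and black bars for the mean and SD of 4 libraries. The BMDC libraries lie between 12.1 and 20.9 and the BMDC-fer libraries between 6.38 and 7.73.

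Il15 and Il6 are both made by activated antigen-presenting cells, and neither passed the test over all libraries. Il15 (chromosome 8 from 82331632 to 82403222, minus strand) was at 8.09, 9.64, 5.28 and 4.84 CPM in the 4 BMDC libraries and at 8.80, 12.1, 4.86 and 8.66 CPM in BMDC-fer. Within BMDC, replicates 1 and 2 were the higher ones, and the groups overlapped. Its log2 fold change was 0.31 (SE 0.32, 95% interval -0.42 to 1.03, adjusted p = 0.550 by edgeR). Il6 (chromosome 5 from 30013114 to 30019981, plus strand) was at 1.68, 1.85, 5.30 and 5.19 CPM in BMDC, then at 2.08, 3.62, 0.934 and 0.838 CPM in BMDC-fer. The order of the replicates was thus opposite in the groups: BMDC replicates 3 and 4 were the highest of all 8 libraries and BMDC-fer replicates 3 and 4 the lowest. Over all libraries BMDC averaged 3.51 ± 2.01 and BMDC-fer 1.87 ± 1.30 CPM (SD, n = 4), a log2 fold change of -0.90 (SE 0.58, 95% interval -2.21 to 0.40, adjusted p = 0.323 by edgeR).

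The regulatory cytokines lay at opposite ends of the range. Il10 (chromosome 1 from 131019845 to 131024974, plus strand) had 1, 2, 9 and 13 counts in the 4 BMDC libraries and 4, 5, 2 and 3 counts in BMDC-fer. Values above 5 counts were seen in BMDC replicates 3 and 4, and the groups overlapped. In the fit without a filter its log2 fold change was -0.80 (SE 0.78, adjusted p = 0.535 by edgeR), and without BMDC replicate 4 it was -0.13 (adjusted p = 0.945). Tgfb1 (chromosome 7 from 25687002 to 25705077, plus strand) was at 394, 349, 437 and 456 CPM in BMDC, then at 461, 447, 478 and 494 CPM in BMDC-fer. Each BMDC-fer library exceeded the BMDC mean, and BMDC-fer replicate 2 fell below BMDC replicate 4. BMDC averaged 409 ± 47.5 and BMDC-fer 470 ± 20.4 CPM (SD, n = 4). The log2 fold change was 0.20 (SE 0.12, 95% interval -0.06 to 0.46, adjusted p = 0.276 by edgeR), and the exact two-sided permutation test gave p = 0.0571.

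The effect on 3 cytokines differed between the replicate pairs. In replicates 3 and 4, Il12b, Il6 and Ebi3 were called lower in BMDC-fer, 3 of the 6 tested cytokines against 16.2% of all tested genes, and 0 were called higher, against 16.8% (33.0% in either direction). Il12b was 9.89-fold lower (log2 fold change -3.31, SE 0.33, adjusted p = 6.72e-05), with pair means of 3.24 in BMDC and 0.324 CPM in BMDC-fer. Il6 was 5.90-fold lower (log2 fold change -2.56, SE 0.29, adjusted p = 0.000126), with pair means of 5.24 and 0.886 CPM. Ebi3 was 1.90-fold lower (log2 fold change -0.93, SE 0.14, adjusted p = 0.000563). In replicates 1 and 2 none of these 3 passed the test, with log2 fold changes of 0.49 for Il12b (adjusted p = 0.165), 0.68 for Il6 (adjusted p = 0.0719) and -0.04 for Ebi3 (adjusted p = 0.825). Il27 was called higher there (log2 fold change 0.93, SE 0.30, adjusted p = 0.0342), 1 of 6 against 9.36% of all tested genes, and 0 were called lower, against 12.9% (22.3% in either direction). With each pair of replicate numbers fitted alone, a setting added after the values were seen, the calls numbered 1 in replicates 1 and 2 (19.4% of all genes tested there) and 3 in replicates 3 and 4 (35.7%). Tgfb1 in replicates 1 and 2 had an adjusted p of 0.0237 at a log2 fold change of 0.29, under the minimum fold. These fits gave both pairs their own effect in the quasi-likelihood test of edgeR over all 8 libraries, adjusted after Benjamini-Hochberg, and rest on 2 libraries of a group in each pair.

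The difference between the pairs was tested by an interaction term in the same edgeR fit. It was -3.80 on the log2 scale for Il12b (adjusted p = 0.000341), -3.24 for Il6 (adjusted p = 0.000485) and -0.88 for Ebi3 (adjusted p = 0.00675). For Il27 it was -0.76 (adjusted p = 0.200), so its rise in replicates 1 and 2 was not shown to differ between the pairs. Il15 and Tgfb1 gave 0.18 (adjusted p = 0.728) and -0.17 (adjusted p = 0.302). Such differences were common: 37.8% of all tested genes passed the interaction test, and 18.3% passed it with the lower effect in replicates 3 and 4. The split was noticed in these data and is no label of the study. The spread it is tested against is that of libraries within a pair. Summed dendritic cell markers were 6984 and 6624 CPM in BMDC replicates 3 and 4 and 3098 and 3099 CPM in the same replicates of BMDC-fer. In replicates 1 and 2 they were 14812 and 10032 in BMDC and 7268 and 4744 CPM in BMDC-fer. The marker sum, in which Cd74 was the highest gene, was thus lower in BMDC-fer in both pairs. Its part in the cytokine values was not tested.

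**Figure D4:**
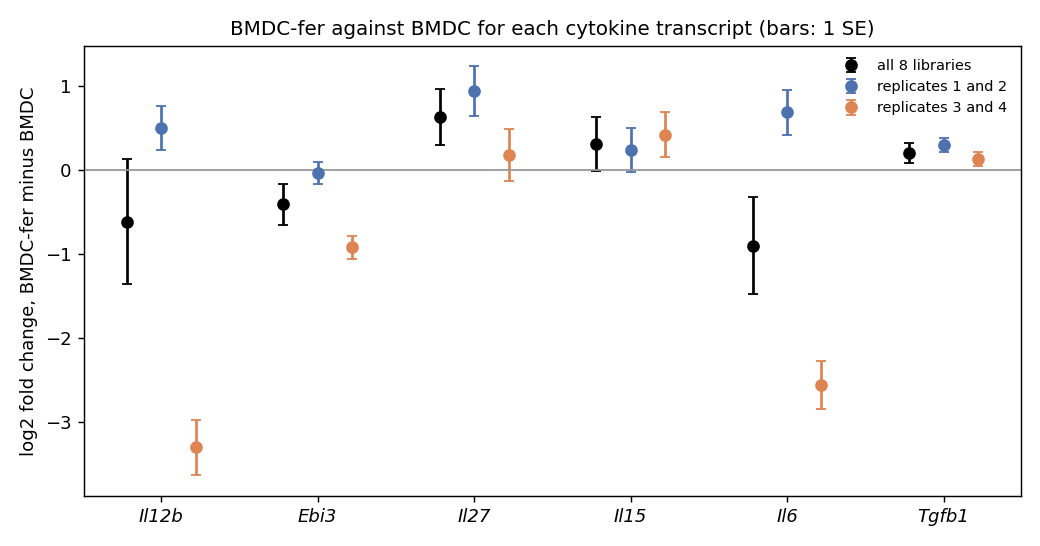
Log2 fold change of BMDC-fer over BMDC for the 6 tested cytokine transcripts, over all 8 libraries (black), in replicates 1 and 2 (blue) and in replicates 3 and 4 (orange), with bars of 1 SE. The orange points of Il12b at -3.31, Il6 at -2.56 and Ebi3 at -0.93 lie well below the blue ones, while Il15 and Tgfb1 are close together.

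Across the 8 libraries, log2 CPM of Il12b and Ebi3 had a Pearson r of 0.944, Il12b and Il6 of 0.806 and Ebi3 and Il6 of 0.710. Il27 and Il15 had an r of 0.606. These are descriptions over libraries that share groups and replicate pairs. Among genes with a symbol and a mean count of 100 or more, Lsm5 and Isg20l2 were most like Il12b (both r = 0.968), Rps6-ps3 (r = 0.992) and Gm8186 (r = 0.979) most like Ebi3, and Slc29a1 (r = 0.988) and Acadl (r = 0.977) most like Il6. Map3k20 (r = 0.928) and Psrc1 (r = 0.910) were most like Il27, and Tmem42 (r = 0.992) and Timm8b (r = 0.983) most like Tgfb1. The genes most like Il15 were C1qa (r = 0.965) and C1qb (r = 0.963), which encode chains of complement C1q and stand on the macrophage and monocyte marker list whose sums are given above.

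The receptor chains of these cytokines were read as transcripts only, which does not show whether the cells could sense the cytokines. Of 14 receptor chain genes 13 were tested, and 1 was called higher and 3 lower in BMDC-fer, against 3.47% and 5.91% of all tested genes. The gene not tested was Il2rb, at 6 to 27 counts in BMDC and 0 to 6 in BMDC-fer. The median log2 fold change of the 13 tested chains was -0.12, where that of all tested genes was 0.00069. Il10rb, a chain shared by the receptors for IL-10 and IL-22, had the highest fold change. It rose from 75 ± 6.02 to 148 ± 14.3 CPM (SD, n = 4; log2 fold change 0.98, SE 0.11, adjusted p = 0.00268 by edgeR), with 2911 to 3499 counts in BMDC and 5338 to 7924 in BMDC-fer. Il10ra, the chain that binds IL-10, fell from 195 ± 31.2 to 128 ± 9.10 CPM (log2 fold change -0.60, SE 0.13, adjusted p = 0.0245 by edgeR). The fold changes of the IL-10 receptor chains had opposite signs. For neither chain did the groups overlap, as in 11.3% of tested genes with BMDC-fer higher and 11.6% with BMDC-fer lower. Il23r, the IL-23-specific chain, was the lowest at 17 to 23 counts in BMDC and 3 to 9 in BMDC-fer (log2 fold change -1.79, SE 0.35, adjusted p = 0.0153 by edgeR). Il12rb2, the signalling chain for IL-12, fell from 17.1 ± 3.29 to 10.1 ± 2.36 CPM (log2 fold change -0.76, SE 0.21, adjusted p = 0.0461 by edgeR). Leaving out each library in turn, Il10rb and Il23r kept the call in all 8 fits. Il10ra kept it in 2, with adjusted p-values of 0.0158 to 0.0754. Il12rb2 kept it in 1, that without BMDC-fer replicate 2, with adjusted p-values of 0.0430 to 0.129. Il10ra and Il12rb2, like every called list gene below that is neither the highest nor the lowest of its list, were named after their values were seen.

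Other ligands and TGF-beta genes gave single calls. For these lists too, 3.47% of all tested genes were called higher and 5.91% lower. Of 13 TGF-beta isoforms, binding proteins and activators 8 were tested, with 0 called higher, 1 lower and a median log2 fold change of 0.07. Tgfb3, the isoform called, was the lowest and fell from 4.87 ± 1.78 to 1.27 ± 0.390 CPM (log2 fold change -1.94, SE 0.34, adjusted p = 0.0109 by edgeR). Nrros, which holds latent TGF-beta1 at the cell surface, was the highest, at 178 ± 107 and 337 ± 67.9 CPM (log2 fold change 0.92, adjusted p = 0.176 by edgeR, 0.0367 with the replicate block). Among 7 other ligands that signal through gp130, the IL-6 signalling chain, 4 were tested and 1, Lif, was called lower, with a median log2 fold change of -0.46. Lif, the leukemia inhibitory factor gene, fell from 14 ± 7.91 to 2.54 ± 0.838 CPM (log2 fold change -2.46, SE 0.45, adjusted p = 0.0129 by edgeR). Clcf1 had the highest value of that list, 0.02. Tgfb3 and Lif kept the call with each library left out.

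Of 20 other T-cell steering cytokines 8 were tested, with 0 called higher and 1 lower, against 3.47% and 5.91% of all tested genes. Their median log2 fold change was 0.15. Il22, the one called, had 12, 36, 74 and 62 counts in the 4 BMDC libraries and 12, 10, 10 and 2 in BMDC-fer (log2 fold change -2.44, SE 0.63, adjusted p = 0.0413 by edgeR). Its call was lost with the replicate block (adjusted p = 0.0753) and in 7 of the 8 fits with a library left out (adjusted p-values of 0.0216 to 0.0985), all but that without BMDC replicate 1. Tnf was the highest, with a log2 fold change of 1.15 (adjusted p = 0.197 by edgeR, 0.00445 and called with the replicate block). Ifnb1, which was under the filter, had 1, 0, 3 and 0 counts in BMDC and 20, 24, 6 and 5 in BMDC-fer. Its groups did not overlap, as in 11.3% of tested genes with BMDC-fer higher. Genes at 3 counts or fewer in every library were Il5, Il9, Il17a, Il21, Il25, Ifng, Csf2, Itgb6 and Ctf1. Of the 8 markers of T cells 3 were tested and 1, Lck, was called lower (log2 fold change -1.59, adjusted p = 0.0482 by edgeR), at 20 to 59 counts in BMDC and 8 to 17 in BMDC-fer. Cd3g, the lowest, had 11 to 191 counts in BMDC and 1 to 23 in BMDC-fer (log2 fold change -3.57, adjusted p = 0.0696 by edgeR, 0.00702 and called lower with the replicate block). Cd28 made up most of the summed level of the list, which without it was 2.29 to 5.62 CPM in BMDC libraries and 0.864 to 1.64 CPM in BMDC-fer. Cd28 itself had a log2 fold change of 0.28 (adjusted p = 0.443 by edgeR). The defining chains Cd3d and Cd3e had 6 to 15 and 1 to 4 counts in BMDC, and 0 to 6 counts each in BMDC-fer. Other markers did not fall. Cd2 had 3 to 9 counts in BMDC and 10 to 15 in BMDC-fer, Cd247 2 to 13 and 5 to 20, and Zap70 0 to 4 and 0 to 5. The part of T cells in the cytokine values was not tested, and neither was that of human Jurkat RNA in the marker counts of BMDC-fer.

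All 24 genes on a list of transcription factors known to act on these cytokine genes were tested. 1 was called higher and 6 lower, against 3.47% and 5.91% of all tested genes, and the median log2 fold change was -0.26. Rel, the c-Rel subunit of NF-kB, was the lowest (log2 fold change -2.06, SE 0.40, adjusted p = 0.0160 by edgeR), and Bhlhe40, Irf4, Bcl6, Nfkb1 and Stat3 fell by 1.51, 1.42, 1.25, 0.69 and 0.59 on the log2 scale. Batf was called higher (log2 fold change 0.94, SE 0.22, adjusted p = 0.0290 by edgeR). Maf had the highest fold change, 1.10, which did not pass (adjusted p = 0.330 by edgeR). With each library left out in turn, Bhlhe40 kept the call in all 8 fits. Rel lost it without BMDC-fer replicate 4 (adjusted p = 0.0593), and Irf4 without BMDC-fer replicate 3 or 4 (highest adjusted p = 0.0663). Batf and Stat3 kept it in 3 of the 8 fits, Bcl6 in 2 and Nfkb1 in 1, with adjusted p-values of up to 0.0776, 0.0781, 0.102 and 0.127. Rel differed between the pairs in the direction of Il12b, Il6 and Ebi3, with log2 fold changes of -0.87 in replicates 1 and 2 and -2.97 in replicates 3 and 4 (adjusted p of the difference 9.47e-05, edgeR's interaction test). For Irf4 the values were -1.47 and -1.32 (adjusted p of the difference 0.404). These are the genes' own values, and no relation between a factor and a cytokine was tested.

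**Figure D5:**
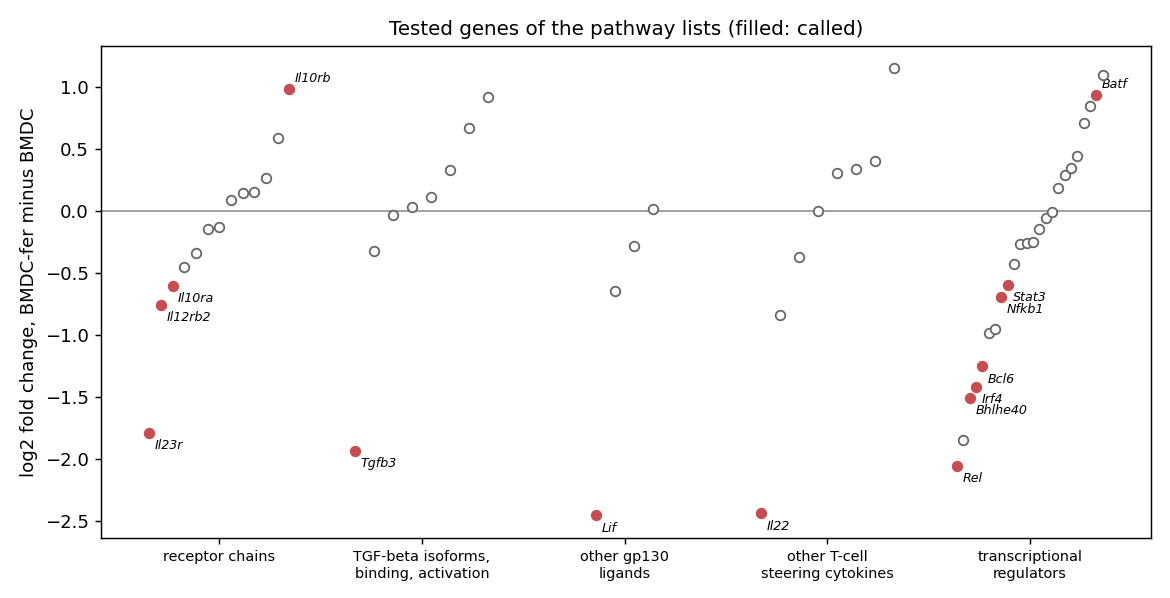
Log2 fold change of BMDC-fer over BMDC for the 57 tested genes of the 5 pathway lists, 1 point per gene in rank order within its list, filled where called. Of the 14 filled points, 12 lie below 0, and Il10rb and Batf lie above it. Of all tested genes 5.91% were called lower and 3.47% higher.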

How the data were processed

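Mouse RNA was measured in 4 libraries of BMDC and 4 of BMDC-fer. Per the submitters' processing notes the tools were CASAVA, HISAT2, featureCounts and DESeq2, with the build mm10. The authors deposited raw counts per mouse gene, which were used without change. Strand use and the treatment of multi-mapping reads are not given in the sources used here. Reads of human genes were not analysed here, and how far engulfed Jurkat RNA was counted at mouse genes in BMDC-fer was not tested. Groups were taken from the sample labels.

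The cytokines and the gene lists were chosen with earlier results of these data known. Of 55487 genes, 55141 had a symbol in GENCODE M21 (GRCm38). Counts were fitted in R 4.3.3 with edgeR 4.0.16 (TMM, filterByExpr with a count minimum of 10, 0.236 CPM), which kept 15411 genes. The quasi-likelihood p-values were adjusted after Benjamini-Hochberg over all of them. Single genes were also compared by exact permutation of log2(CPM + 0.05). Scripts were tested on simulated data. These had the same dispersion for every gene and, besides the simulated effects, no split between replicate pairs, so they do not give error rates for these libraries. Alternatives were DESeq2 1.42.0, other normalizations, filters and thresholds, the replicate block and each library left out.

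Replicate numbers are shared by the groups in the labels. Over genes, the departures of same-numbered libraries from their group means correlated with r of 0.313 to 0.446, above 0.1 in all 4 pairs. By that limit the numbers were taken to pair the libraries in the replicate block, while the main fit held no term for them. Libraries of the same replicate pair with different numbers had r of 0.186 to 0.380, and BMDC replicates 3 and 4 each correlated more with the other number of their pair (0.343 and 0.380) than with their own (0.313 and 0.343). The correlations therefore follow the split of replicates 1 and 2 from 3 and 4 as much as the number. Genes are not independent replicates.

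Named genes were the 9 cytokines, the highest and lowest tested gene of each pathway list, and pathway list genes at 3 counts or fewer in every library. For each tested cytokine the 2 genes with the highest Pearson r were also named. Other pathway list genes and all cell type markers were named after their values were seen. Promoter windows came from RefSeq (GRCm38.p6), of which 6 belonged to 5 of the cytokines.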

Additional observations from a re-analysis of the deposited data

Results flagged for a closer look

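In 3 of the 6 tested cytokines the effect differed between replicates 1 and 2 and replicates 3 and 4, by the interaction term in edgeR, adjusted after Benjamini-Hochberg. The effect in replicates 3 and 4 minus that in replicates 1 and 2 was -3.80 on the log2 scale for Il12b (adjusted p = 0.000341), -3.24 for Il6 (adjusted p = 0.000485) and -0.88 for Ebi3 (adjusted p = 0.00675). The split was noticed in these data and is no label of the study, and each pair holds 2 libraries of a group. Fitted alone, replicates 3 and 4 gave log2 fold changes of -3.29 for Il12b (edgeR adjusted p = 1.36e-05), -2.55 for Il6 (9.85e-06) and -0.91 for Ebi3 (6.84e-05), a setting chosen after seeing the data. Replicates 1 and 2 fitted alone gave 0.94 for Il27 (edgeR adjusted p = 0.0246). Of 18 sets of 4 libraries searched for 1 outlying library, 0 were flagged, where chance gives 0.9. A search for 1 library apart from the others cannot show a split of 2 against 2.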

How the results depend on the processing

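The number of cytokines called stayed at 0 under all 18 alternatives, and the sign of each cytokine's log2 fold change stayed in all 159 values computed under them. Log2 fold changes lay between -1.39 and -0.26 for Il12b, -1.43 and -0.63 for Il6, -0.60 and -0.26 for Ebi3, 0.46 and 0.79 for Il27, 0.10 and 0.51 for Il15 and 0.12 and 0.26 for Tgfb1. For Il10 and Il23a they lay between -1.15 and -0.13 and between 0.11 and 0.75. The lowest adjusted p among them was 0.0886, for Ebi3 with the replicate pair as a term. These alternatives leave out the separate effects of the replicate pairs, where signs differed. Log2 fold changes in replicates 1 and 2 were 0.49 for Il12b and 0.68 for Il6, and in replicates 3 and 4 -3.31 and -2.56. Il12a and Il10, at low counts, also had opposite signs in the pairs. Il23a, Ebi3, Il27, Il15 and Tgfb1 had the same sign in both. With the replicate block 2000 of all genes were called in place of 1445, 0 cytokines and 16 pathway list genes in place of 14, and it changed no call of a cytokine. Over all genes 2261 were called with DESeq2, 2815 with the replicate pair as a term and 225 with glmTreat, which tests against the minimum fold change and left 4 list genes. Leaving out each library in turn gave 565 to 1440 genes, 5 to 11 list genes and 0 cytokines, and both lowest values came without BMDC-fer replicate 4. Each of these fits held the same number of libraries, and the cause of the lowest values was not tested. The number of interaction calls among the cytokines was 3 with RLE normalization and without a filter. The log2 difference in the Ebi3 to Il27 ratio was -0.93 with a pseudocount of 0.5, chosen after seeing the data. At these depths Il12a, Il23a and Il10, with at most 14 counts, allow no statement on a change.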
